A study of Rattus norvegicus with 14 samples.

Results

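The enzymes described here are the 9 cholesterol synthesis enzymes encoded by Hmgcs1, Idi1, Fdps, Fdft1, Sqle, Lss, Cyp51, Msmo1 and Nsdhl. Members were found as all probe sets of the deposited value table whose single gene symbol in the platform annotation was one of these names. The annotation gave 12 probe sets for 8 of the 9 genes, out of 10411 genes with a single-symbol probe set. Expression of Hmgcs1 was not analysed here. Idi1, Fdft1, Lss and Cyp51 had 2 probe sets each, and all 12 probe sets passed the filter on low values, a mean log2 value of at least 4 over the 14 arrays.

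Expression was measured in microdissected dentate gyrus, the hippocampal region of the granule cells, from 14 male Long-Evans rats aged 3 to 4 months. All 14 rats had been trained in a standard water maze 2 to 3 weeks before, and each then had 1 session of 8 trials in a new pool at another site. In the learning group (n = 7) the visible platform stayed in place and spatial cues were given, while in the control group (n = 7) the platform moved and the surroundings held no informative cues. Both groups swam a 90 s probe trial 1 h after the last trial and were killed directly afterwards, so the controls had swum as well and are no home-cage controls. Each rat gave 1 Affymetrix RAE230A array, which the labels call a biological replicate. The values are log2 expression after GCRMA, a method that corrects background, normalizes arrays to each other and combines the probes of a probe set.

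Cholesterol in the brain is made locally, because lipoprotein cholesterol of the blood does not cross the blood-brain barrier. The pathway joins acetyl groups into hydroxymethylglutaryl-CoA and mevalonate, builds farnesyl diphosphate and squalene from them, and closes squalene to lanosterol, from which methyl groups are then removed. Transcription of its enzymes is driven by SREBP transcription factors, which are released from the endoplasmic reticulum when membrane sterol is low. In the adult brain, oligodendrocytes and astrocytes carry much of this synthesis, and neurons take up cholesterol carried by apolipoprotein E.

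Promoters of 3 members are shown because of their levels over all 14 rats. Lss and Msmo1 had the closest rank agreement, while Idi1 and Msmo1 had the most opposed levels (Pearson r of -0.50). That opposition did not pass adjustment, and r was 0.19 in control rats alone. Each stretch runs from 250 bases before to 50 bases after the annotated start of the gene, 5′ to 3′ in the direction of transcription, from RefSeq on build GRCr8. Capitals mark CCAAT, the box bound by NF-Y, and GGGCGG, a core bound by SP1, on either strand. Both factors are known to work together with SREBP.
Lss promoter at chr20:12118181-12118480 on the minus strand: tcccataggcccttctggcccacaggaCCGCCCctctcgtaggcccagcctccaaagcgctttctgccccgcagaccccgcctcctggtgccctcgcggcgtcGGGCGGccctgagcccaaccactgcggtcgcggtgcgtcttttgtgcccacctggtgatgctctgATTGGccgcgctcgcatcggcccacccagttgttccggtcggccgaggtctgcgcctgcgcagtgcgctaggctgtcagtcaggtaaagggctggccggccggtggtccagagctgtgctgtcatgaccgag
Msmo1 promoter at chr16:29746863-29747162 on the plus strand: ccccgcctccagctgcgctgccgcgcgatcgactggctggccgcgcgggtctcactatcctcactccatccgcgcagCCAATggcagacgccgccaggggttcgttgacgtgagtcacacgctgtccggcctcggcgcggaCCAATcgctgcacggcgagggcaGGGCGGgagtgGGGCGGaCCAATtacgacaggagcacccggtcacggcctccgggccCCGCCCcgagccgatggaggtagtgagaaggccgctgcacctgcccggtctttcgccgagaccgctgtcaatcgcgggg
Idi1 promoter at chr17:66547475-66547774 on the minus strand: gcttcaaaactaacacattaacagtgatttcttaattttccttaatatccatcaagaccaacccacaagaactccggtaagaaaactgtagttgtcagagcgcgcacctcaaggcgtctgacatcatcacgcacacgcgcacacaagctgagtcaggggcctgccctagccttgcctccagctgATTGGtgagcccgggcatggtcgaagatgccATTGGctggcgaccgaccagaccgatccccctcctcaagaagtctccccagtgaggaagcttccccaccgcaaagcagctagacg
Promoters of 7 of the 9 members were searched, Hmgcs1 included, and those of Fdft1 and Sqle were not analysed here. CCAAT occurred on either strand in 6 of these 7 windows and in 37.7% of all 27457 promoters of the same length, and GGGCGG in 5 of 7 and in 34.9%. The motifs did not overlap each other in the 3 windows shown. A sterol response element spelled TCACNCCAC, on either strand, was in 0 of the 7 windows and in 1.13% of all promoters, which says only that these letters are not in these windows. A match is a description of the sequence and was not tested as a binding site.

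The learning and control groups were compared in 1 limma fit over 9387 probe sets. At the planned threshold, a Benjamini-Hochberg adjusted p below 0.05 over all of them, 0 probe sets were called (0.0%) and 0 of the 12 member probe sets. At an unadjusted p below 0.05 limma listed 3 member probe sets, those of Sqle, Msmo1 and the dimmer one of Fdft1, which is 25% of the 12 against 13.1% of all probe sets tested (1230). Of these 3, Sqle was lower in learning rats (6.67% of all tested) and the other 2 were higher (6.43% of all tested). The groups overlapped for all 12 member probe sets, while 0.405% of all tested had groups that did not overlap. Learning rats had the higher mean on 5 of the 12 member probe sets and the lower mean on 7, beside 51.7% of all tested probe sets with a higher mean. The members' median difference was -0.04 log2 units and their median absolute difference 0.09. Over all tested probe sets the median difference was 0.01 and the median absolute difference 0.08. In bulk tissue, fewer cells of a type and less RNA per cell cannot be told apart.

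**Figure D1:**
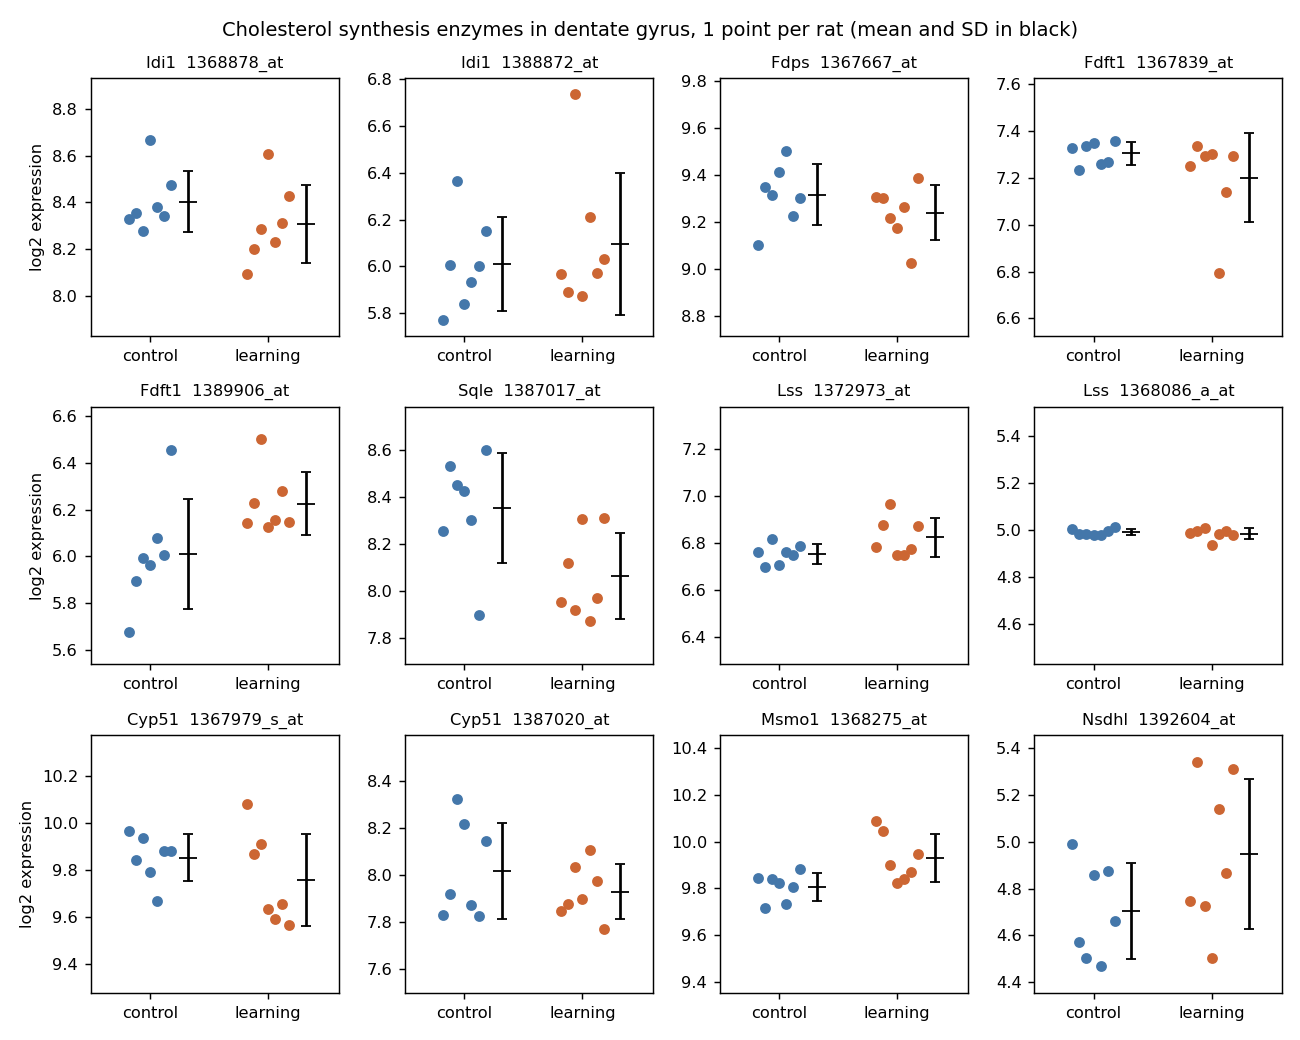
Log2 expression of the 12 member probe sets in each of 7 control and 7 learning rats, 1 point per rat, with the group mean and SD in black and the same axis span of 1.1 log2 units in every panel. The groups overlap in every panel. The Sqle points of learning rats lie between 7.87 and 8.31, and 6 of 7 control points lie above the learning median of 7.97.

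Sqle encodes squalene epoxidase, which puts the first oxygen on the sterol precursor and is a main control point of the pathway after mevalonate synthesis. Its log2 level in control rats had a lowest value of 7.90, a median of 8.42 and a highest of 8.60. In learning rats the lowest was 7.87, the median 7.97 and the highest 8.31. All 7 learning rats lay below the control median, and 3 control rats, replicates 1, 5 and 6, lay within the range of the learning rats.

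Sqle averaged 8.35 ± 0.23 log2 units over the control rats and 8.06 ± 0.18 over the learning rats (SD, n = 7 each). The difference was -0.29 ± 0.11 log2 units (SE), or 1.22-fold higher in control tissue, with a 95% confidence interval from -0.51 to -0.07. The adjusted p from limma was 0.279 (0.0149 before adjustment), so Sqle did not pass the test. Its absolute difference was larger than that of 94.8% of all probe sets tested. The difference was -0.37 without control replicate 6, the largest of the values with 1 array left out, and its adjusted p was then 0.11.

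Msmo1 encodes the methylsterol monooxygenase that starts the removal of methyl groups from the sterol ring after the step of Cyp51. Its log2 level ran from 9.72 over a median of 9.82 to 9.88 in control rats. In learning rats it ran from 9.82 over a median of 9.90 to 10.09. All 7 learning rats lay above the control median, the lowest of them by less than 0.01, and 4 of 7 learning rats lay above the highest control rat.

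Msmo1 averaged 9.81 ± 0.06 log2 units over the control rats and 9.93 ± 0.10 over the learning rats (SD, n = 7 each). The difference was 0.12 ± 0.05 log2 units (SE), with a 95% confidence interval from 0.01 to 0.24. The adjusted p from limma was 0.342 (0.0312 before adjustment), so Msmo1 did not pass either. With 1 array left out the difference ranged from 0.10 to 0.14. The unadjusted p in limma was 0.0646 without control replicate 2 and 0.0617 without control replicate 5. It was 0.0725 without learning replicate 1, 0.0664 without learning replicate 2 and below 0.05 without any other single array. Msmo1 had an SD within groups of 0.08 log2 units, above that of 9.46% of tested probe sets.

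Nsdhl encodes the sterol dehydrogenase that acts after Msmo1 in the same demethylation. Its log2 level ran from 4.47 over 4.66 (median) to 4.99 in control rats. In learning rats it ran from 4.50 over 4.87 (median) to 5.34, and 3 of 7 learning rats lay above the highest control rat. The difference was 0.24 ± 0.13 log2 units (SE), with a 95% confidence interval from -0.04 to 0.53 and an adjusted p of 0.454 in limma. All of its values lay near the array medians of 5.09 to 5.12, a range in which GCRMA can compress differences. Nsdhl varied more between rats than 87.6% of tested probe sets, with an SD within groups of 0.27.

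Fdft1 encodes squalene synthase, which joins farnesyl diphosphates into squalene and is the first step that leads only to sterols. Its brighter probe set ran from 7.23 over a median of 7.33 to 7.36 on the log2 scale in control rats. In learning rats it ran from 6.79 over 7.29 (median) to 7.34. A single rat, learning replicate 5, made up the low end, since the other learning rats lay between 7.14 and 7.34. The difference was -0.10 ± 0.07 log2 units (SE; adjusted p = 0.561 in limma), and -0.04 without that rat.

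The dimmer Fdft1 probe set went the other way. Its log2 level ran from 5.68 over a median of 5.99 to 6.45 in control rats and from 6.12 over 6.15 (median) to 6.50 in learning rats. All 7 learning rats lay above the control median, and 1 of them, replicate 3, lay above the highest control rat. The difference was 0.22 ± 0.10 log2 units (SE), and the adjusted p from limma was 0.355 (0.0409 before adjustment). It was 0.16 without control replicate 1, 0.17 without learning replicate 3 and 0.29 without control replicate 7. The 2 Fdft1 probe sets thus gave opposite signs, and which of them follows the transcript was not tested.

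Idi1, the isopentenyl diphosphate isomerase, acts before squalene is formed. It had log2 levels from 8.28 to 8.67 in control rats on its brighter probe set, with a median of 8.36. Learning rats had levels from 8.09 to 8.61 with a median of 8.29, and 3 of 7 lay below the lowest control rat. The difference was -0.10 ± 0.08 log2 units (SE), with a 95% confidence interval from -0.26 to 0.07 (adjusted p = 0.615 in limma). It was -0.05 without control replicate 4, -0.06 without learning replicate 1 and -0.15 without learning replicate 4.

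The dimmer Idi1 probe set differed by 0.09 ± 0.13 log2 units (SE; adjusted p = 0.788 in limma). That value rested on learning replicate 3, at 6.74 against 5.87 to 6.21 in the other learning rats, and was -0.02 without it, 0.05 without control replicate 1 and 0.15 without control replicate 3. Fdps, which makes farnesyl diphosphate for sterols and for protein prenylation, had a difference of -0.08 ± 0.07 log2 units (SE; adjusted p = 0.635 in limma). Its levels were 9.10 to 9.50 in control rats and 9.02 to 9.39 in learning rats, and 6 of 7 learning rats lay below the control median of 9.32. The Fdps difference was -0.05 without control replicate 5 and -0.04 without learning replicate 6.

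Lss encodes lanosterol synthase, which folds the epoxide into the ring skeleton of sterols. Its brighter probe set ran from 6.70 over 6.76 (median) to 6.82 on the log2 scale in control rats, and from 6.75 over 6.78 (median) to 6.97 in learning rats. Here 3 of 7 learning rats lay above the highest control rat, and the difference was 0.07 ± 0.05 log2 units (SE; adjusted p = 0.525 in limma), or 0.05 without learning replicate 3. The other Lss probe set was nearly constant, from 4.94 to 5.01 over all rats, and its SD within groups was above that of 0.0746% of tested probe sets. These values lay under the array medians of 5.09 to 5.12, a range in which GCRMA can compress differences.

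Cyp51 encodes the demethylase that acts on lanosterol. On its brighter probe set, log2 levels ran from 9.67 over 9.88 (median) to 9.97 in control rats and from 9.57 over 9.65 (median) to 10.08 in learning rats. The learning rats spanned a wider range on both sides: 4 of 7 lay below the lowest control rat and 1, replicate 1, lay above the highest. The difference was -0.09 ± 0.08 log2 units (SE; adjusted p = 0.628 in limma), and the dimmer probe set gave -0.09 ± 0.09 (SE; adjusted p = 0.661). The 95% confidence interval of the brighter one ran from -0.27 to 0.08. Its difference was -0.15 without learning replicate 1 and -0.06 without learning replicate 7, and that of the dimmer one was -0.04 without control replicate 3 and -0.06 without control replicate 4.

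**Figure D2:**
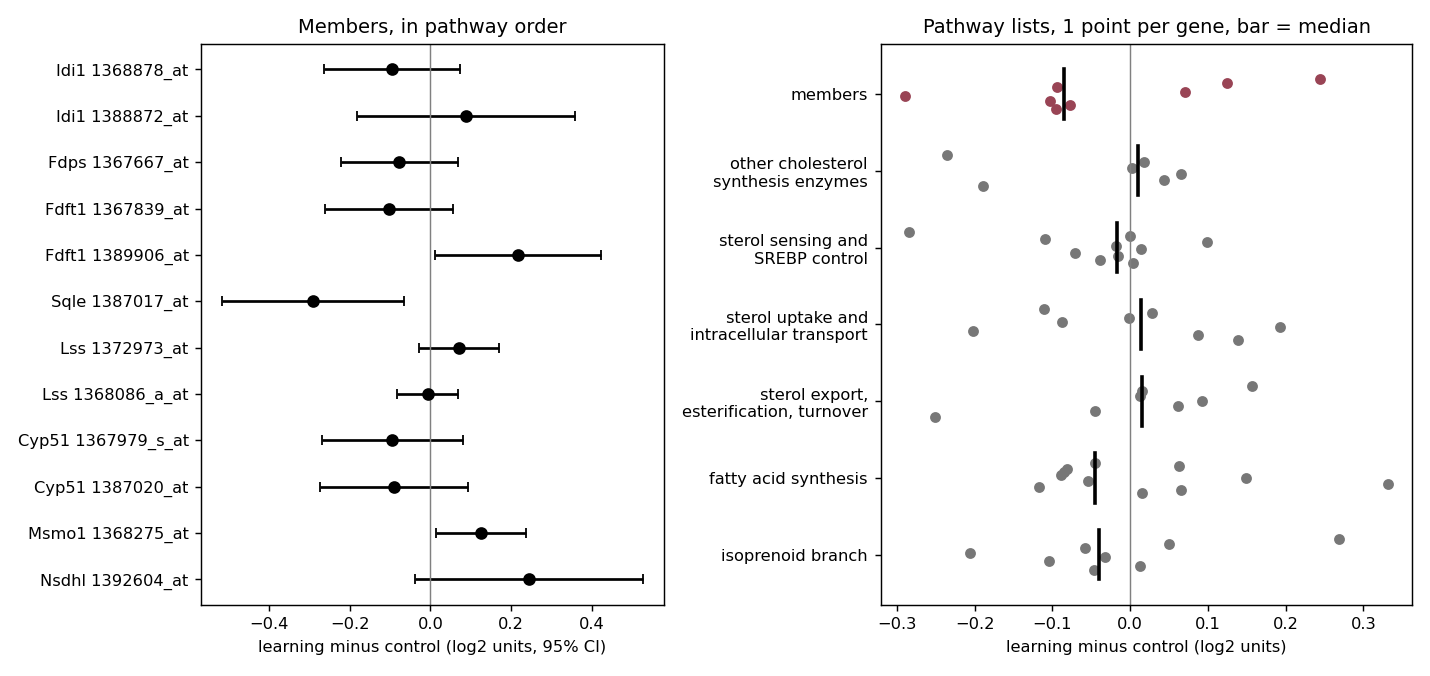
Left, learning minus control in log2 units for the 12 member probe sets in pathway order, with 95% confidence intervals from limma. Right, the same difference for the brightest probe set of each gene in 7 pathway lists, with the median as a bar. Intervals of Sqle (-0.51 to -0.07), Msmo1 (0.01 to 0.24) and the dimmer Fdft1 probe set (0.01 to 0.42) leave out 0, although none passed adjustment over all probe sets.

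In pathway order, with 1 probe set per gene (that of highest mean), Idi1, Fdps, Fdft1, Sqle and Cyp51 had negative differences and Lss, Msmo1 and Nsdhl positive ones. The median over these 8 genes was -0.09 log2 units. Averaging every tested probe set per gene gave 0.01, since the second probe sets of Idi1 and Fdft1 were of opposite sign. No difference between earlier and later steps was tested.

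The rest of the pathway was read from lists chosen with earlier results of these data known. Of 12 other cholesterol synthesis enzymes, 10 had a probe set and 6 passed the filter, of which 4 were higher and 2 lower in learning rats and 0 had an unadjusted p below 0.05 in limma. Their median difference was 0.01 log2 units, and the 3 of smallest p were Acat2, Dhcr7 and Mvd. Acat2, which makes the acetoacetyl-CoA used by Hmgcs1, differed by -0.19 ± 0.11 (SE; adjusted p = 0.494 in limma). Dhcr7, the last reductase of the Kandutsch-Russell branch, differed by -0.24 ± 0.16 (SE; adjusted p = 0.54), and Mvd, the mevalonate diphosphate decarboxylase, by 0.07 ± 0.08 (SE; adjusted p = 0.724). Mvk, Lbr, Tm7sf2 and Ebp lay under the filter.

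Of 10 tested genes of sterol sensing and SREBP control, 4 were higher and 6 lower, with a median difference of -0.02 log2 units and 1 gene below an unadjusted p of 0.05. That gene was Rnf139, an ubiquitin ligase of the endoplasmic reticulum, at -0.28 ± 0.11 (SE; adjusted p = 0.305 in limma). Srebf2, whose product is the main activator of the members, differed by -0.04 ± 0.10 (SE; adjusted p = 0.882). Insig1, which holds SREBP back when sterol is high and is itself a target of it, differed by -0.07 ± 0.10 (SE; adjusted p = 0.789). Erlin1 differed by -0.11 and Mbtps2, a protease that releases SREBP, by 0.10, with adjusted p values of 0.44 and 0.587.

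Genes of sterol uptake and transport were split 4 and 4 with a median of 0.01 log2 units. Lrp1, a receptor for apolipoprotein E, differed by 0.14 ± 0.06 (SE; adjusted p = 0.349 in limma). Lipa, the lysosomal acid lipase, differed by 0.19 ± 0.11 and Scarb1, a lipoprotein receptor, by -0.11 ± 0.09 (SE), with adjusted p values of 0.462 and 0.586. Of 7 genes of sterol export, esterification and turnover, 5 were higher and 2 lower, with a median of 0.01. Nceh1, a cholesterol ester hydrolase, differed by 0.16 ± 0.06 (SE; adjusted p = 0.273), and the exporter gene Abcg1 by -0.25 ± 0.12 (SE; adjusted p = 0.388), with 0.06 and -0.03 on its other probe sets. Nr1h2, the sterol-sensing receptor LXR beta, differed by 0.09 and Apoe by 0.06, with adjusted p values of 0.58 and 0.684. Cyp46a1 was not analysed here.

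Of 11 fatty acid synthesis genes, 5 were higher and 6 lower, with a median of -0.05 log2 units. The elongase Elovl5 differed by 0.15 ± 0.06 (SE; adjusted p = 0.326 in limma), Fasn by -0.12 ± 0.07 (SE; adjusted p = 0.497; 0.0072 on its other probe set) and the desaturase Scd by 0.33 ± 0.21 (SE; adjusted p = 0.513). Of 8 genes of the isoprenoid branch, which takes its substrate from Fdps, 3 were higher and 5 lower, with a median of -0.04. Rabggtb, a subunit of the enzyme that prenylates Rab proteins, differed by -0.21 ± 0.07 (SE; adjusted p = 0.241), Zmpste24, which trims prenylated proteins, by 0.27 ± 0.11 (SE; adjusted p = 0.338), and Pdss2 by -0.06 ± 0.06 (SE; adjusted p = 0.694). No gene of these 6 lists passed adjustment in limma. Over the 6 lists, 6 of 50 tested genes had an unadjusted p below 0.05, beside 13.1% of all tested probe sets.

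Covariation between rats was measured as the correlation of log2 levels over the 14 arrays, with 1 probe set per gene and 28 pairs of members. Of these pairs 15 had a Pearson r above 0 and 13 below, and the median r was 0.06. Over all pairs of 6697 genes the median r was 0.0019, and 50.2% of pairs were above 0. Within the control rats alone the median r of the members was 0.27, and within the learning rats 0.24 (n = 7 each), against 0.0026 and 0.0043 over all gene pairs in the same arrays. Over all 14 rats with values centred on the group means it was 0.09, and the pooled median was -0.02 without learning replicate 6. The sign of r was the same in both groups for 14 of the 28 pairs. For comparison, the 8 oligodendrocyte markers had a median pairwise r of 0.55, and the 8 meningeal markers of 0.92. That median was 0.17 for the 10 astrocyte markers and 0.02 for the 6 CA1 markers.

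No pair of members passed adjustment over the 28 pairs by Pearson's r. The highest was Idi1 with Sqle, at r = 0.57 (permutation p = 0.0312, adjusted p = 0.389), Spearman's rho of 0.60 (permutation p = 0.0278, adjusted p = 0.36) and r = 0.61 without the 2 rats farthest from the Idi1 median. With every tested probe set of a gene averaged, r was 0.14. Within groups it was 0.29 in control rats (exact p = 0.478) and 0.75 in learning rats (exact p = 0.0488). Exact p values within groups were not adjusted for the number of pairs. Fdft1 with Sqle had r = 0.53 (permutation p = 0.0206, adjusted p = 0.389) and rho = 0.52 (permutation p = 0.0584, adjusted p = 0.36). It had r = 0.35 without the 2 farthest rats, 1 of which was the low learning replicate 5, and 0.10 with probe sets averaged. The most opposed pair was Idi1 with Msmo1, at r = -0.50 (permutation p = 0.0695, adjusted p = 0.389) and rho = -0.49 (permutation p = 0.0771, adjusted p = 0.36). It had r = -0.58 without the 2 farthest rats, 0.19 in control rats (exact p = 0.716) and -0.67 in learning rats (exact p = 0.0935). Without learning replicate 1 it was -0.28, and with probe sets averaged -0.26. Centred on the group means, the highest pair was Cyp51 with Msmo1, chosen after its values were seen, at r = 0.73 (permutation p = 0.0112, adjusted p = 0.314), with 0.63 in control rats and 0.76 in learning rats. Its pooled r was 0.35 (permutation p = 0.23) and its rho 0.24 (permutation p = 0.408). On the dimmer Cyp51 probe set the pooled r with Msmo1 was -0.20 (permutation p = 0.506), with 0.47 in control rats and -0.57 in learning rats. The smallest exact p values within a group were those of Fdft1 with Msmo1 and of Fdps with Cyp51, both in control rats. Fdft1 with Msmo1 had r = 0.91 in control rats (exact p = 0.00218) and 0.44 in learning rats (exact p = 0.355). Fdps with Cyp51 had -0.88 in control rats (exact p = 0.0103) and 0.17 in learning rats (exact p = 0.713).

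By rank, 1 of the 28 pairs passed. Lss and Msmo1 had a Spearman's rho of 0.81 (permutation p = 0.00073, adjusted p = 0.0204), with a Pearson r of 0.54 (permutation p = 0.0452, adjusted p = 0.389). Without the 2 rats farthest from the Lss median, learning replicates 2 and 3, r was 0.55. Within groups r was 0.57 in control rats (exact p = 0.185) and 0.27 in learning rats (exact p = 0.541), and over values centred on the group means it was 0.34 (permutation p = 0.328). Both genes also had positive learning minus control differences, which enter the pooled value. The Lss levels behind it covered 0.27 log2 units over all 14 rats. On the dimmer, nearly constant Lss probe set the pooled r with Msmo1 was 0.23 (permutation p = 0.409). Its rho was 0.48 (permutation p = 0.0841, adjusted over 66 pairs of probe sets 0.486). The promoters of Lss and Msmo1, shown above, both hold CCAAT and GGGCGG, as did Hmgcs1 and Fdps. Fdps had a pooled Pearson r of -0.07 with Lss and -0.11 with Msmo1. Any link between these motifs and the levels was not tested.

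**Figure D3:**
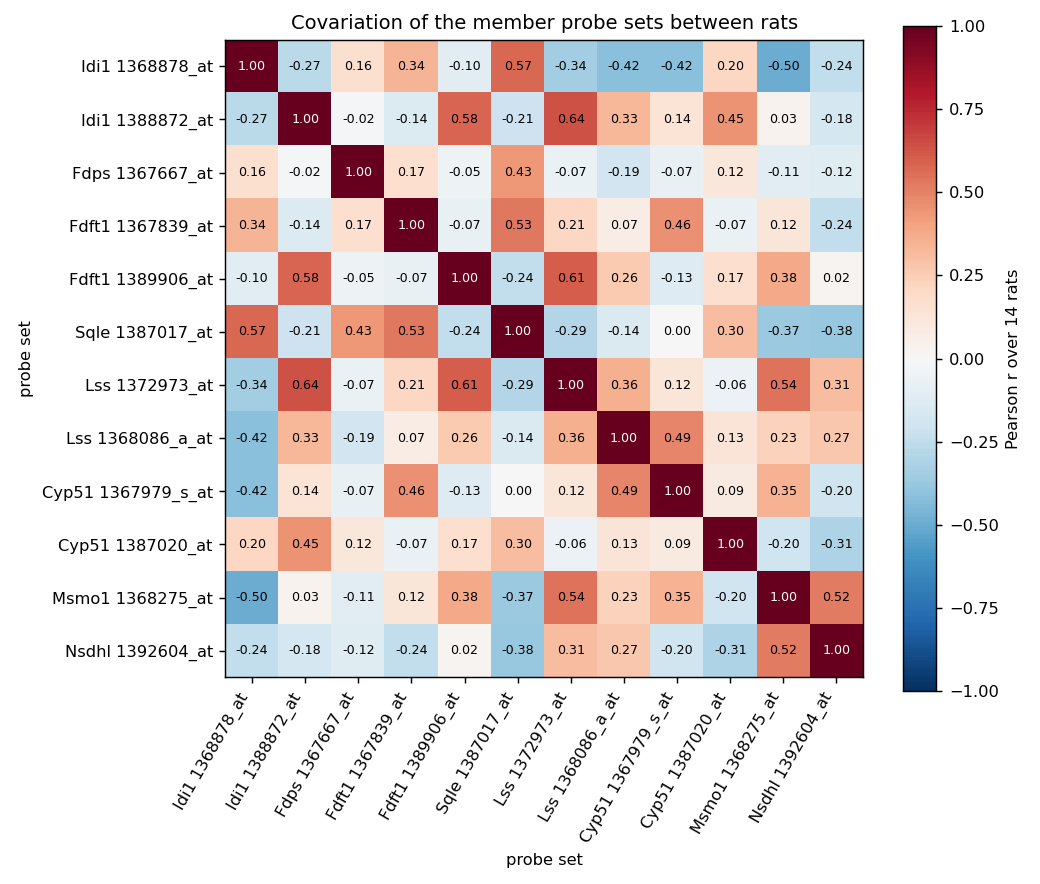
Pearson r over 14 rats between the 12 member probe sets, in pathway order, from -1 (blue) to 1 (red). The 2 probe sets of Idi1, Fdft1, Lss and Cyp51 have r values of -0.27, -0.07, 0.36 and 0.09 with each other.

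The r between probe sets of the same member was -0.27 for Idi1 (permutation p = 0.342; rho = -0.27, permutation p = 0.34), -0.07 for Fdft1 (permutation p = 0.765; rho = -0.05, permutation p = 0.879), 0.36 for Lss (permutation p = 0.205; rho = 0.47, permutation p = 0.09) and 0.09 for Cyp51 (permutation p = 0.756; rho = 0.05, permutation p = 0.88). Adjusted over these 4 pairs, the lowest p of Pearson's r was 0.684, and without the 2 farthest rats r lay between -0.01 and 0.15. Over all 922 genes with at least 2 tested probe sets, the median r between the 2 brightest was 0.12, with quartiles of -0.11 and 0.39. The pairs of Fdft1, Lss and Cyp51 lay between these quartiles, and that of Idi1 below the lower one.

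Among all 66 pairs of member probe sets, the 3 highest Pearson r values joined the dimmer probe sets of Idi1 and Fdft1 and the brighter one of Lss. They were 0.64 for Idi1 with Lss (permutation p = 0.0223), 0.61 for Fdft1 with Lss (permutation p = 0.0215) and 0.58 for Idi1 with Fdft1 (permutation p = 0.0348), each with an adjusted p of 0.459. Their rho values were 0.39, 0.64 and 0.46 (permutation p = 0.166, 0.0161 and 0.0973). Learning replicate 3 was the highest rat on all 3 probe sets. Without it the r values were 0.20, 0.41 and 0.33, and without the 2 rats farthest from the first gene's median they were 0.07, 0.47 and 0.59.

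**Figure D4:**
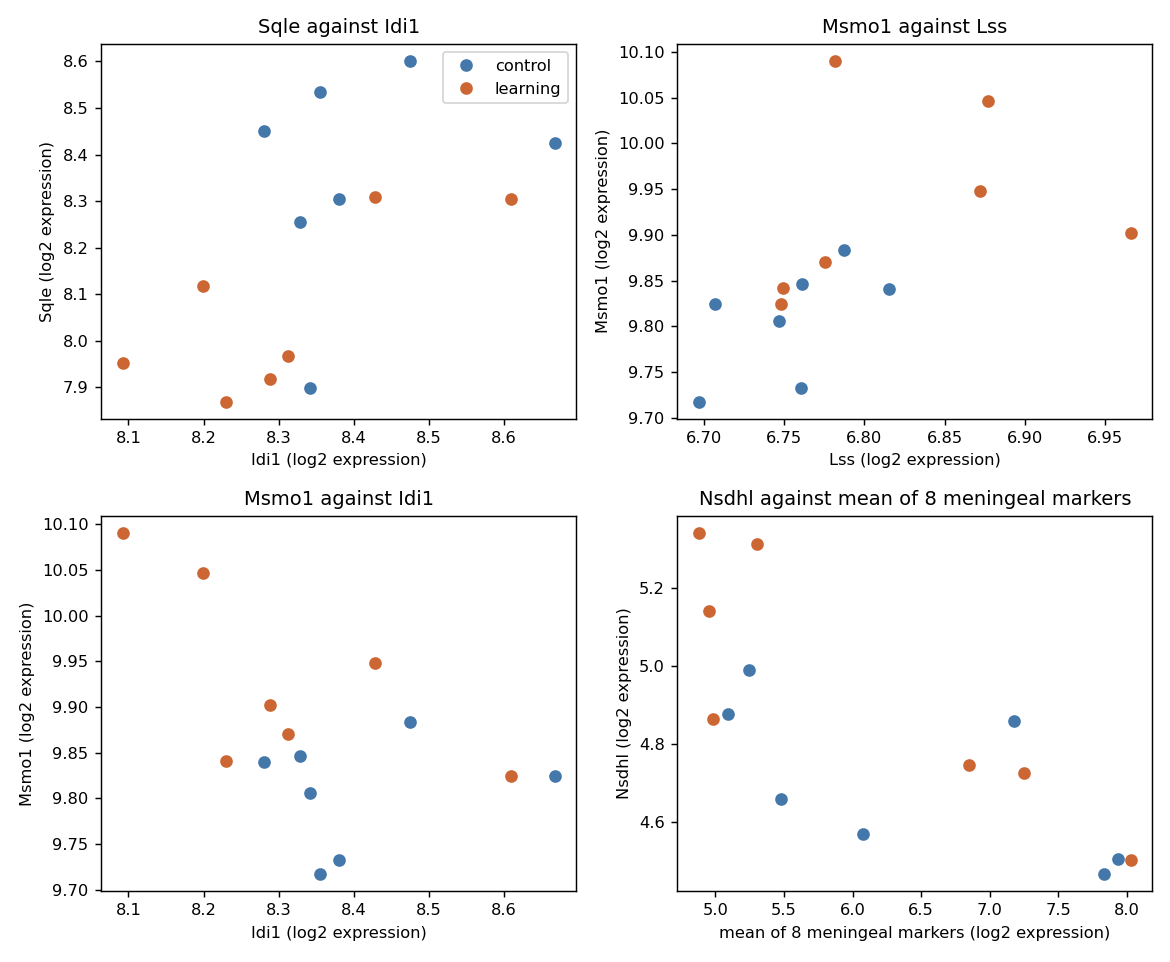
Log2 levels of 14 rats for Sqle against Idi1, Msmo1 against Lss, Msmo1 against Idi1, and Nsdhl against the mean of 8 meningeal markers, with control rats in blue and learning rats in orange. Nsdhl is lowest, at 4.47 to 4.51, in the 3 rats with the highest meningeal means (7.83 to 8.03).

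Dissections can carry other tissue, so marker lists of 11 cell types were set beside the members. Granule cell markers (3 of 8 tested) averaged 9.15 ± 0.08 in control and 9.31 ± 0.09 in learning rats (SD, n = 7 each; exact permutation p = 0.00583, adjusted over 11 lists 0.0321). Not all 3 markers rose, since Calb1, the brightest, averaged 10.82 in control and 10.79 in learning tissue. The list difference thus came from the other 2, Prox1 and Dsp, and how it was shared between them was not analysed. Choroid plexus markers (3 of 7 tested) averaged 6.37 ± 0.35 and 5.82 ± 0.10 (SD, n = 7 each; exact permutation p = 0.00117, adjusted 0.0129). This difference came from 1 marker, Ttr, at 7.47 ± 1.07 and 5.69 ± 0.14 (SD, n = 7 each), while Enpp2, the brightest of the list, had 7.30 and 7.26 and Kcne2 4.33 and 4.50. Microglial markers (7 of 9 tested) averaged 7.65 ± 0.18 and 7.47 ± 0.09 (SD, n = 7 each; exact permutation p = 0.0408, adjusted 0.112), and CA1 markers (6 of 8 tested) 7.65 ± 0.26 and 7.92 ± 0.12 (SD, n = 7 each; exact permutation p = 0.0286, adjusted 0.105). The lists of the 2 glial types known for cholesterol synthesis did not pass. Astrocyte markers (10 of 10 tested, S100b the brightest) ranged from 10.41 to 10.72 in control and from 10.33 to 10.56 in learning rats. Oligodendrocyte markers (8 of 10 tested, Mbp the brightest) ranged from 8.47 to 9.41 and from 8.71 to 9.06. The differences of these lists, -0.08 and -0.0004, had exact permutation p values of 0.164 and 0.998. Those of CA3 (-0.02, Chgb the brightest), interneurons (-0.03, Gad1), oligodendrocyte precursors (-0.08, Olig1), endothelium (-0.02, Slco1c1) and meninges (-0.37, Ptgds) had exact permutation p values of 0.767, 0.679, 0.317, 0.809 and 0.583.

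The 8 members were correlated with the 11 marker means, which makes 88 relations, and 0 passed adjustment by Pearson's r (10 had an unadjusted permutation p below 0.05) and 1 by rank. Nsdhl ran against the mean of 8 meningeal and fibroblast markers, which spanned 4.88 to 8.03 over the rats and was not separated by group. Its Pearson r was -0.75 (permutation p = 0.00236, adjusted p = 0.184) and its rho -0.85 (permutation p = 0.00024, adjusted p = 0.0211). It was -0.66 within control rats, -0.86 within learning rats and -0.66 without the 2 rats farthest from the median of the markers. With the meningeal mean in the fit, the learning minus control difference of Nsdhl was 0.18 log2 units (adjusted p = 0.453 in limma). The part of the meningeal tissue in this result was not tested further.

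Sqle and Fdps had relations that did not pass adjustment. For Sqle with choroid plexus r was 0.69 (permutation p = 0.0078, adjusted p = 0.184) and rho 0.53 (permutation p = 0.056, adjusted p = 0.421). That r was 0.66 in control rats, -0.32 in learning rats and 0.73 without the 2 farthest rats. In control rats the choroid plexus mean varied mostly with Ttr, whose SD was 1.07 against 0.15 for Enpp2 and 0.12 for Kcne2. For Sqle with microglia r was 0.68 (permutation p = 0.00837, adjusted p = 0.184) and rho 0.71 (permutation p = 0.00632, adjusted p = 0.174), with 0.59 in control rats, 0.38 in learning rats and 0.66 without the 2 farthest rats. Fdps with astrocytes had r = 0.68 (permutation p = 0.00803, adjusted p = 0.184), rho = 0.72 (permutation p = 0.00443, adjusted p = 0.174), 0.65 in control rats, 0.62 in learning rats and 0.68 without the 2 farthest rats. With the astrocyte mean in the fit, the Sqle difference was -0.22 log2 units (unadjusted p = 0.0605, adjusted p = 0.616 in limma) and that of Fdps -0.02 (adjusted p = 0.961 in limma). With the CA1 mean in the fit, the Sqle difference was -0.36 (adjusted p = 0.418 in limma, 0.017 before adjustment). It was -0.27 with the meningeal mean (adjusted p = 0.342 in limma) and -0.29 with the oligodendrocyte mean (adjusted p = 0.301 in limma). The Fdps difference was -0.17 with the CA1 mean (adjusted p = 0.468 in limma, 0.0364 before adjustment). The part of these cell types in the Sqle and Fdps differences was not tested further.

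The genes most like the members were named from 6689 other genes by Pearson r over the 14 arrays, as a description. The mean of the members' standardised levels was closest to Vps4b (r = 0.79), Rit1 (0.78), Cacna1d (0.76), Mapk9 (0.75), Tspan12 (0.74) and Anp32a (0.73), and most opposed to Cd81 (-0.84), Tmem222 (-0.82) and Cadps (-0.81). None of the 9 had an adjusted p below 0.574 for learning minus control in limma. Single members were closest to Rab34 (Idi1, r = 0.84), Ociad1 (Fdps, 0.93), Kmt5b (Fdft1, 0.91) and Coro1a (Sqle, 0.87). The others were closest to Nasp (Lss, r = 0.89), Mtpn (Cyp51, 0.92), Necab1 (Msmo1, 0.88) and Adam23 (Nsdhl, 0.82). All of these r values share the same 14 arrays, and each was picked as the highest or lowest over all genes compared.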

How the data were processed

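Total RNA of 14 dissected dentate gyri, 1 per rat, was labelled with biotin and hybridised to RAE230A arrays per the labels' protocols. The deposited values are log2 expression per probe set, made by the authors with GCRMA per the submitters' processing notes. Its version was not given in the sources used here, nor were its settings. Titles of the samples gave group and replicate number, and the labels name no batch. Of 15923 probe sets, 57 controls and 6479 with a mean under 4 were left out, which left 9387. The number of arrays limits the precision. Of the probe sets other than controls, 12783 had 1 symbol in the platform annotation, 312 several and 2771 none listed. Array medians were 5.09 to 5.12, and correlations between arrays 0.995 to 0.998.

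The difference learning minus control came from limma 3.58.1 in R 4.3.3 (lmFit and eBayes, no covariate), with Benjamini-Hochberg adjustment over all tested probe sets. The fit was also run on simulated data with noise drawn independently for each probe set, so correlation between genes was not covered. Correlations were tested two-sided with 100000 permutations, or exactly within groups of 7. Marker means were tested by exact permutation of the group labels, two-sided. Lists and correlations used the brightest tested probe set of each gene. Named genes were all members, the 3 of smallest p per pathway list with Srebf2, Insig1 and Apoe, the brightest marker of lists given in the text, and the most alike genes. All tested markers of the granule cell and choroid plexus lists were named as well. Members and lists were chosen with earlier results of these data known. The marker lists were granule cell, CA1, CA3, interneuron, astrocyte, oligodendrocyte and its precursor, microglia, endothelium, choroid plexus and meninges. Alternatives were other filters, scalings, priors, array weights, the replicate block, marker covariates, probe set choices and each array left out. Figures were drawn with matplotlib 3.10.9.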

Additional observations from a re-analysis of the deposited data

Results flagged for a closer look

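Single rats stood far from their group on 4 member probe sets, by a gap larger than Dixon's 95% critical value for 7 samples; chance gives about 1 such case in 20 groups, and 12 probe sets were examined in both groups. Learning replicate 5 was the low case on the brighter Fdft1 probe set, at 6.79 against 7.14 to 7.34 in the other learning rats. Learning replicate 3 was the high case on the dimmer probe sets of Idi1, at 6.74 against 5.87 to 6.21, and of Fdft1, at 6.50 against 6.12 to 6.28. Learning replicate 4 was the low case on the dimmer Lss probe set, at 4.94 against 4.98 to 5.01 on a nearly constant probe set.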

How the results depend on the processing

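No member probe set passed the adjusted threshold under any alternative run. The count of all probe sets past it was 1 with the oligodendrocyte marker mean as covariate and 0 to 1 with 1 array left out (1 without control replicate 6, learning replicate 1 or learning replicate 4). At an unadjusted p below 0.05 the astrocyte covariate gave 801 probe sets, of which 1 was a member's (Msmo1), and leaving out 1 array gave 944 to 1377, with 1 to 4 of the members' (1 without control replicate 2 or learning replicate 2). Sqle stayed negative in every fit, from -0.37 to -0.25 with 1 array left out. The dimmer probe sets of Idi1 and Lss changed sign with 1 array left out, with ranges of -0.019 to 0.15 and -0.011 to 0.00067. Averaging every tested probe set per gene gave a median difference of 0.014 for the members, and Idi1 with Cyp51 then had r = 0.31. Covariates also moved Cyp51, whose differences were -0.03 and -0.04 with the CA1 mean, and the brighter Fdft1 probe set, at -0.06 with the astrocyte mean. Medians ranged from 0.0041 to 0.037 for sterol export and from -0.062 to 0.0072 for fatty acid synthesis with 1 array left out. Marker differences ranged from 0.22 to 0.36 for CA1 and from -0.23 to -0.14 for microglia, where the exact permutation p was above 0.05 in 5 and 9 of 14 cases, and from -0.051 to 0.015 for CA3, -0.061 to 0.0049 for interneurons, -0.069 to 0.088 for oligodendrocytes and -0.055 to 0.019 for endothelium. The causes were not tested. With the replicate number as a block, limma called 0 probe sets and 2 member probe sets had an unadjusted p below 0.05, Sqle had an adjusted p of 0.181, and the pair of Idi1 and Cyp51 had r = 0.068. With values centred on the replicate number (the same block), Idi1 with Msmo1 had r = -0.90, Lss with Msmo1 0.71, Idi1 with Sqle 0.71 and the members' median r was 0.0053. Centring in this way leaves 1 learning minus control difference per number, 7 in all, and keeps the group difference in r. These r values, and that of Idi1 with Cyp51, are a description. Deviations of same-numbered rats correlated between -0.28 and 0.26, with r over 0.1 for 4 of 7 numbers, and 4 of 7 numbers were their own closest match. Pairing was taken to need all 7 over 0.1, and the labels name nothing that the numbers share, so the numbers were not used as pairs. The closest matches are a hint from the data and not from the design.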
